A study of Homo sapiens with 3 samples.

Results

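The nuclear-encoded subunits of oxidative phosphorylation were examined in A549 cells, a human lung adenocarcinoma line, after transfection with either strand of *miR-139*. Members were taken by name: protein-coding genes whose symbol starts with NDUFA, NDUFB, NDUFC, NDUFS, NDUFV, UQCR, COX4I, COX5, COX6, COX7, COX8 or ATP5, the SDHA to SDHD genes and *CYC1*, without the assembly factors named NDUFAF. Of 87 such symbols, 85 had a probe, out of 22435 genes named on the array and 18212 named protein-coding genes. They fell into 37 genes of complex I, 4 of complex II, 9 of complex III, 16 of complex IV and 19 of complex V. The members without a probe named here were *COX7A1* and *UQCRHL*. The rule uses names and no measured value, but the group and *COX8A* were picked for description with earlier results of these arrays known, so the values are a description.

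Each condition had 1 single-colour Agilent array, 3 arrays in all. The mock cells received transfection reagent only (RNAiMAX), and the other cultures received the *miR-139-5p* or the *miR-139-3p* precursor with the same reagent. All cultures were of one cell line in the same medium, and no control miRNA was among the arrays used here. With 1 array per condition there was no replicate check, so nothing was tested, and precision is limited by the number of arrays. Slide 1 carried the mock RNA together with that of *miR-139-5p*, while *miR-139-3p* was hybridised on slide 2, so slide and *miR-139-3p* cannot be told apart. Between 48.1% and 53.1% of the 60901 spots per array were well above background and 0 were saturated. The epithelial markers *KRT8*, *KRT18*, *KRT19*, *EPCAM* and *CDH1* were well above background on all 3 arrays, as were 4 of 4 measured genes known to be high in A549 cells (*AKR1C1*, *AKR1B10*, *NQO1* and *ALDH1A1*). Among 7 measured markers of blood, endothelial and stromal cells, *MS4A1*, *PECAM1*, *DCN* and *COL1A2* were not well above background on any array, and the highest signal of *PTPRC*, *VWF* or *CD3E* on any array was 20.1 units.

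Oxidative phosphorylation takes electrons from NADH at complex I and from succinate at complex II, passes them through coenzyme Q, complex III and cytochrome c to complex IV, which reduces oxygen, and uses the resulting proton gradient to make ATP at complex V. Most of its subunits are encoded in the nucleus, while the catalytic core of complex IV and parts of complexes I, III and V are encoded in mitochondrial DNA. Several complex IV subunits exist as pairs of isoforms, of which one is found in most tissues and the other in heart, muscle or testis.

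The transfected strands differ in their seeds, the bases by which a miRNA pairs with mRNA, and are shown because every comparison turns on one of them. Bases 2 to 8, counted from 1 at the 5′ end, are in capitals. The sequences are RefSeq's on GRCh38.p14, at chr11:72615066-72615088 for the 3p strand and chr11:72615102-72615124 for the 5p strand, both on the minus strand.
hsa-miR-139-3p: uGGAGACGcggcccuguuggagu
hsa-miR-139-5p: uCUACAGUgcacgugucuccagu
The seeds GGAGACG and CUACAGU are different sequences, so the strands form separate seed families.

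Signals are in the arbitrary units of the scanner software after background subtraction. A log2 difference is the log2 signal of a probe over the 75th percentile of its array, minus the same on the mock array, averaged over the probes of a gene whose spots were well above background in both samples. A gene was called lower or higher where this difference passed 0.5. Probes of one gene differed by a median SD of 0.28 in the comparison of *miR-139-3p* with mock and 0.15 in that of *miR-139-5p*, and replicate spots of a probe by a median SD of 0.05 to 0.06. Members had 109 probes, and 66 of 85 members rested on 1 probe. Differences smaller than these spreads are given as values only.

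*COX8A*, which encodes the ubiquitous isoform of subunit 8A of cytochrome c oxidase, had the lowest difference from mock of all measured subunits with *miR-139-3p*. Its brighter probe read 21489 units in mock cells, 18365 after *miR-139-5p* and 1400.2 after *miR-139-3p*. Its dimmer probe read 3389, 2581 and 167 units in the same order. Both probes were thus close to mock with *miR-139-5p* and low with *miR-139-3p*. The log2 difference from mock with *miR-139-3p* was -3.73 for the brighter and -4.13 for the dimmer probe, a gene value of -3.93 ± 0.28 (SD, n = 2 probes), which left 6.55% of the mock level, 15.3-fold lower. With *miR-139-5p* it was -0.24 ± 0.12 (SD, n = 2 probes), or 84.9% of mock. Set directly against the *miR-139-5p* array, the *miR-139-3p* array held 7.72% of the *COX8A* level, a log2 difference of -3.70.

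Among 78 members measured on both arrays, *COX8A* was the lowest with *miR-139-3p*. The next was *ATP5F1C* at -1.72, a gap of 2.21 on the log2 scale. Relative to the median of the 77 other members, which was -0.14, *COX8A* was at -3.79 on the log2 scale. Relative to the median of the 10 other measured complex IV subunits it was at -3.96. Among all 12670 protein-coding genes measured on both arrays it was the 3rd lowest, after *KRT4* at -4.33 and *IGFBP1* at -3.99. With *miR-139-5p* it ranked 17 of 78 members from the lowest, at -0.19 relative to the median of the others. Its testis-type partner *COX8C* was not well above background on any array, with signals between 0.998 and 2.36 units, so no second isoform was detected at this signal.

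**Figure D1:**
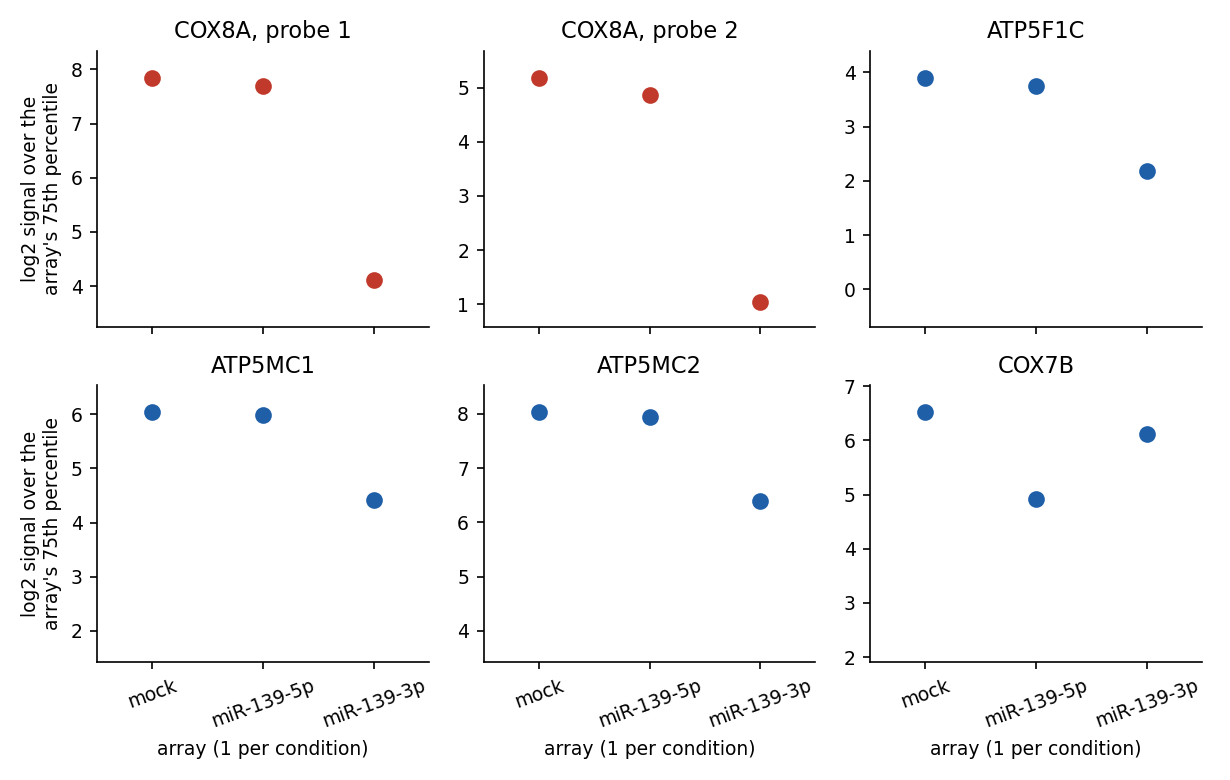
Level of 6 probes on the 3 arrays, as log2 signal over the 75th percentile of the array (vertical axis, each panel spanning the same number of log2 units, with 1 point per array and no error bar). The *COX8A* probes drop from 7.84 to 4.11 and from 5.18 to 1.05 from mock to *miR-139-3p*, the 3 ATP synthase probes drop by less, and *COX7B* is lowest on the *miR-139-5p* array.

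As a group, the subunits did not follow *COX8A*. With *miR-139-3p*, 79 of 85 members had a value, 78 measured on both arrays and 1 as a bound. Of these, 15 were lower (19.0%), against 30.5% of 13549 protein-coding genes called lower in the same comparison. Another 5 members were higher (6.33%), against 23.0% of protein-coding genes, and 59 lay within 0.5. The share of members called was thus below the background in both directions, but not in every setting: after the normexp background correction 22.8% of members were lower against 21.3% of protein-coding genes. Members were mostly bright, with 98 of 109 probes well above background on all arrays. The protein-coding genes were not matched to them for signal in either comparison, so a part of signal level in these shares and SDs was not tested. Their median was -0.15, as was the median of all protein-coding genes, and the SD over members was 0.65, or 0.50 without *COX8A*, against 0.85 over protein-coding genes. The medians of members and protein-coding genes were not equal in every setting. They were -0.02 and -0.14 under quantile normalization, and -0.19 and -0.08 after the normexp correction. At a stricter threshold of 1, 7 members were lower and 1 was higher, beside 12.9% and 10.3% of protein-coding genes. That 1 was *COX6A2*, also among the 5 past 0.5. Its value is a bound, as the gene was not well above background on the mock array. Without scaling between arrays, which moved the median of protein-coding genes from -0.15 to -0.36, 27 members were lower and 2 were higher, beside 41.0% and 16.6% of protein-coding genes. With the E1A spike-in scaling, 26 were lower and 2 were higher, beside 40.2% and 16.9% of protein-coding genes.

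With *miR-139-5p*, 79 members had a value and fewer were called. Of these, 5 were lower (6.33%), against 12.2% of 13192 protein-coding genes, and 2 were higher (2.53%), against 10.6%. After the normexp correction 6.33% were lower against 4.61% of protein-coding genes, so the order of these shares turned. The other 72 lay within 0.5. Of the 2 higher members, *COX6A2* was known only as a bound, being not well above background on the mock array. Past 1, 1 member was lower and 0 were higher, beside 2.37% and 1.85% of protein-coding genes. The median over members was -0.05, beside 0.00 over protein-coding genes, and the SD was 0.28, beside 0.45. The sign of this median turned to 0.06 with the E1A spike-in scaling. Both comparisons share the mock array.

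**Figure D2:**
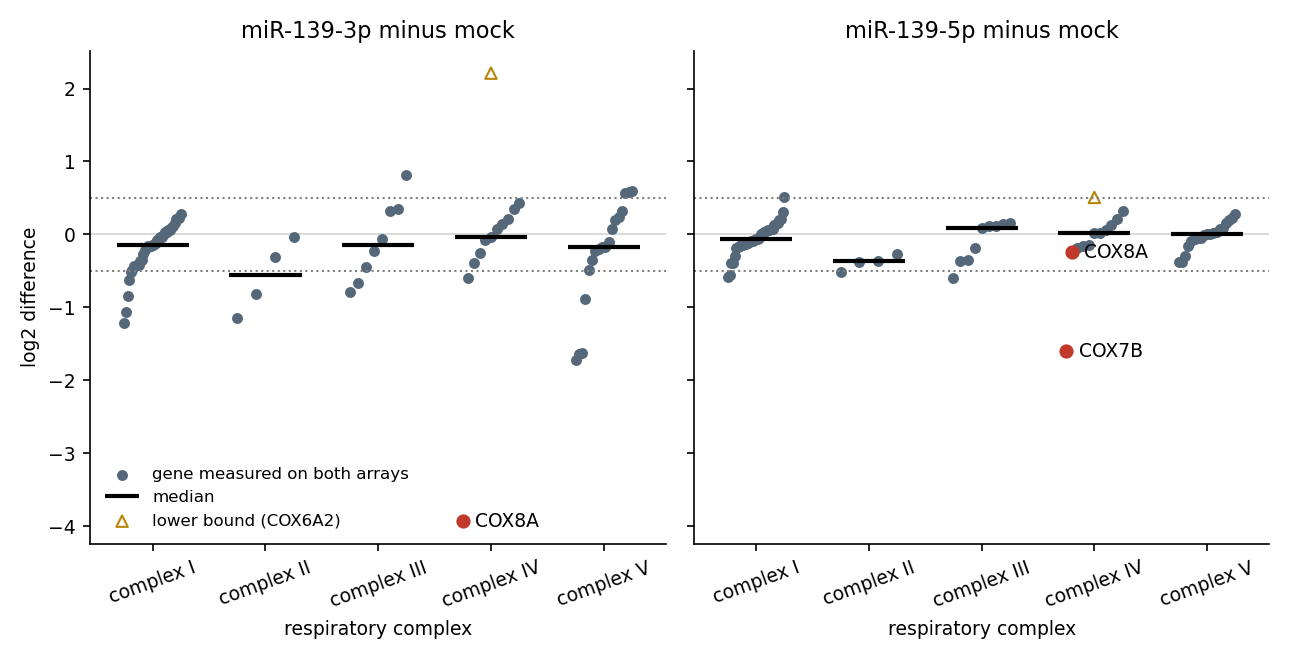
Log2 difference from the mock array (vertical axis) for each member by respiratory complex (horizontal axis), with *miR-139-3p* on the left and *miR-139-5p* on the right. Each point is 1 gene, black bars are medians over measured genes, triangles are lower bounds and dotted lines mark 0.5 in either direction; *COX8A* at -3.93 lies alone below the other complex IV genes on the left, and *COX7B* at -1.59 on the right.

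Complex I, which oxidises NADH, had 5 of 37 members lower with *miR-139-3p* (13.5%, against 30.5% of protein-coding genes) and none higher (against 23.0%), at a median of -0.14 that came to 0.00 under quantile normalization. The lowest was *NDUFV3*, an accessory subunit of the NADH-oxidising arm, with 1880 units in mock cells, 2203 after *miR-139-5p* and 698 after *miR-139-3p*. Its log2 difference was -1.22 after *miR-139-3p* and 0.30 after *miR-139-5p*, so the array with the 3p strand was the low one and the other 2 were near each other. *NDUFA7*, an accessory subunit, read 3419, 2486 and 1415 units in the same order, with differences of -1.06 and -0.39. *NDUFV2*, which carries an iron-sulfur cluster of the same arm, was at -0.84 and -0.85 in its 2 probes with *miR-139-3p*, and its gene value with *miR-139-5p* was -0.17. *NDUFB11*, an accessory subunit of the membrane arm, was at -0.62 and 0.03.

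*NDUFA10* was called lower with *miR-139-3p* at -0.52, but its 2 probes gave -0.90 and -0.13, and the brightest probe alone would not have been called. *NDUFB5*, an accessory subunit of the membrane arm, was at -0.58 after *miR-139-5p* and -0.27 after *miR-139-3p*. Its 2 probes gave -0.36 and -0.81 after *miR-139-5p*, and the brighter one, at -0.36, would not have been called alone. The one complex I member called higher with *miR-139-5p* was *NDUFA5*, an accessory subunit, at 0.51, beside 0.22 with *miR-139-3p*. The highest complex I value with *miR-139-3p* was *NDUFB1* at 0.27. In all, 2 members of 35 with a value were lower with *miR-139-5p* (5.71%, against 12.2% of protein-coding genes) and 1 higher (2.86%, against 10.6%), at a complex median of -0.06. This median turned to 0.06 with the E1A spike-in scaling.

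Complex II, succinate dehydrogenase, is encoded by 4 nuclear genes and also works in the tricarboxylic acid cycle. With *miR-139-3p* 2 of the 4 were called lower (50%, against 30.5% of protein-coding genes) and with *miR-139-5p* 1 (25%, against 12.2%). The 4 genes are too few for a reading of these shares. The median of the 4 was -0.56 after *miR-139-3p* and -0.37 after *miR-139-5p*. *SDHC*, a membrane anchor, was at -1.15 ± 0.58 (SD, n = 3 probes) with *miR-139-3p*, from probes at -1.50, -1.46 and -0.48, so its 3 probes shared the direction and not the size. *SDHB*, the iron-sulfur subunit, read 1947 units in mock cells, 1532 after *miR-139-5p* and 959 after *miR-139-3p*, differences of -0.81 after *miR-139-3p* and -0.27 after *miR-139-5p*. *SDHA*, the catalytic flavoprotein, showed the other order, at -0.04 after *miR-139-3p* and -0.51 after *miR-139-5p*, where its 4 probes lay between -0.68 and -0.21. *SDHD*, the other anchor, was at -0.30 and -0.37 and passed the threshold with neither strand.

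Complex III, which passes electrons from coenzyme Q to cytochrome c, had 2 of 8 members with a value lower with *miR-139-3p* (25%, against 30.5%) and 1 higher (12.5%, against 23.0%), at a median of -0.14. *UQCRC1*, a core subunit on the matrix side, read 3038 units in mock cells, 2249 after *miR-139-5p* and 1520.2 after *miR-139-3p*, differences of -0.79 after *miR-139-3p* and -0.36 after *miR-139-5p*. *CYC1*, the cytochrome c1 subunit that hands electrons to cytochrome c, was called lower with both strands, at -0.67 and -0.60. *UQCRB*, which binds near the quinone site, was called higher with *miR-139-3p* at 0.81, from a bright probe at 0.43 and a dim probe at 1.19. With *miR-139-5p* the complex median was 0.08, and the highest member was *UQCRH* at 0.15; this median turned to -0.05 under quantile normalization. Its copy *UQCRHL* had no probe, and whether the *UQCRH* probes also read it was not tested.

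Complex IV without *COX8A* was close to mock with *miR-139-3p*. The median of its 10 other measured members was 0.02 and their SD 0.33, beside -0.03 and 1.22 with *COX8A* included. Of 11 other members with a value, 1 was lower and 1 higher (9.09% each, against 30.5% and 23.0% of protein-coding genes). With *COX8A* included the sign of this median depended on the scaling and turned to 0.07 under quantile normalization. *COX7A2L*, which helps complexes III and IV associate, was the one other member called lower, at -0.59 from probes at -0.47 and -0.71, and it was at 0.32 with *miR-139-5p*. Its relative *COX7A2*, the liver-type isoform found in most tissues, was at -0.03 and -0.15. The highest measured value with *miR-139-3p* was *COX6B2* at 0.43, beside -0.26 for its partner *COX6B1*. The *COX6B2* value averages a dim probe of 11.8 units in mock cells, at 0.50, and one of 2073 units, at 0.36.

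*COX7B*, a small accessory subunit of complex IV, was the subunit that stood apart with *miR-139-5p*. It read 8570.2 units in mock cells, 2701 after *miR-139-5p* and 5629.7 after *miR-139-3p*, so the *miR-139-5p* array was the low one and the other array lay between. The log2 difference was -1.59 with *miR-139-5p*, 33.2% of mock, and -0.40 with *miR-139-3p*. The value rests on 1 probe, and its partner *COX7B2* was not well above background on any array.

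The muscle-type isoform *COX6A2* was dim on all arrays, with 4.03 units in mock cells, 6.51 after *miR-139-5p* and 19.3 after *miR-139-3p*. It was not well above background on the mock array, so its level with *miR-139-3p* was at least 4.63-fold higher, against the lowest signal counted as above background there. After the normexp background correction its log2 difference with *miR-139-3p* was 0.49, under the threshold. With *miR-139-5p* the bound was 1.42-fold, and the call was lost after the normexp correction, where the log2 difference was 0.09. Its partner *COX6A1*, the isoform of most tissues, was at 0.14 after *miR-139-3p* and 0.02 after *miR-139-5p*. *COX4I2*, an isoform known mainly from lung, was not well above background on any array. Its partner *COX4I1* was marked as an outlier spot on all 3 arrays and has no value; with outlier spots kept it was at -0.05 and -0.03. The gene once named *NDUFA4*, now *COXFA4* and no member by the rule, also belongs to complex IV and was at -0.27 and -0.02.

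Complex V, ATP synthase, held the subunits nearest to *COX8A* with *miR-139-3p*, and 4 of its 18 members with a value were lower (22.2%, against 30.5%) and 3 higher (16.7%, against 23.0%), at a median of -0.17. *ATP5F1C*, the central stalk subunit that turns inside the catalytic head, read 1396 units in mock cells, 1191 after *miR-139-5p* and 367 after *miR-139-3p*. *ATP5MC2*, one of the genes for the membrane ring subunit c, read 24467, 21867 and 6776 units in the same order. *ATP5MC1*, another gene for the same ring subunit, read 6128, 5598 and 1725 units. For these 3 genes the mock and *miR-139-5p* arrays were close and the *miR-139-3p* array was the low one. Their log2 differences were -1.72, -1.64 and -1.62 with *miR-139-3p*, and -0.16, -0.09 and -0.06 with *miR-139-5p*.

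The remaining gene of subunit c, *ATP5MC3*, did not share that size, at -0.35 after *miR-139-3p* and -0.29 after *miR-139-5p*. The 3 genes encode the same mature protein, and whether their probes read one another's transcripts was not tested. *ATP5F1B*, the catalytic beta subunit, read 7788 units in mock cells, 5708 after *miR-139-5p* and 3645 after *miR-139-3p*, differences of -0.89 and -0.37. Its partner in the head, *ATP5F1A*, lay just inside the threshold at -0.49 with *miR-139-3p* and was at 0.00 with *miR-139-5p*. The small membrane subunits *ATP5ME* and *ATP5MK* were called higher at 0.59 and 0.58, and *ATP5MGL*, a copy of the gene for subunit g, at 0.57. None of the 19 complex V members with a value passed 0.5 with *miR-139-5p* (against 12.2% of protein-coding genes lower and 10.6% higher), where the range ran from -0.37 for *ATP5F1B* to 0.28 for *ATP5MGL*.

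**Figure D3:**
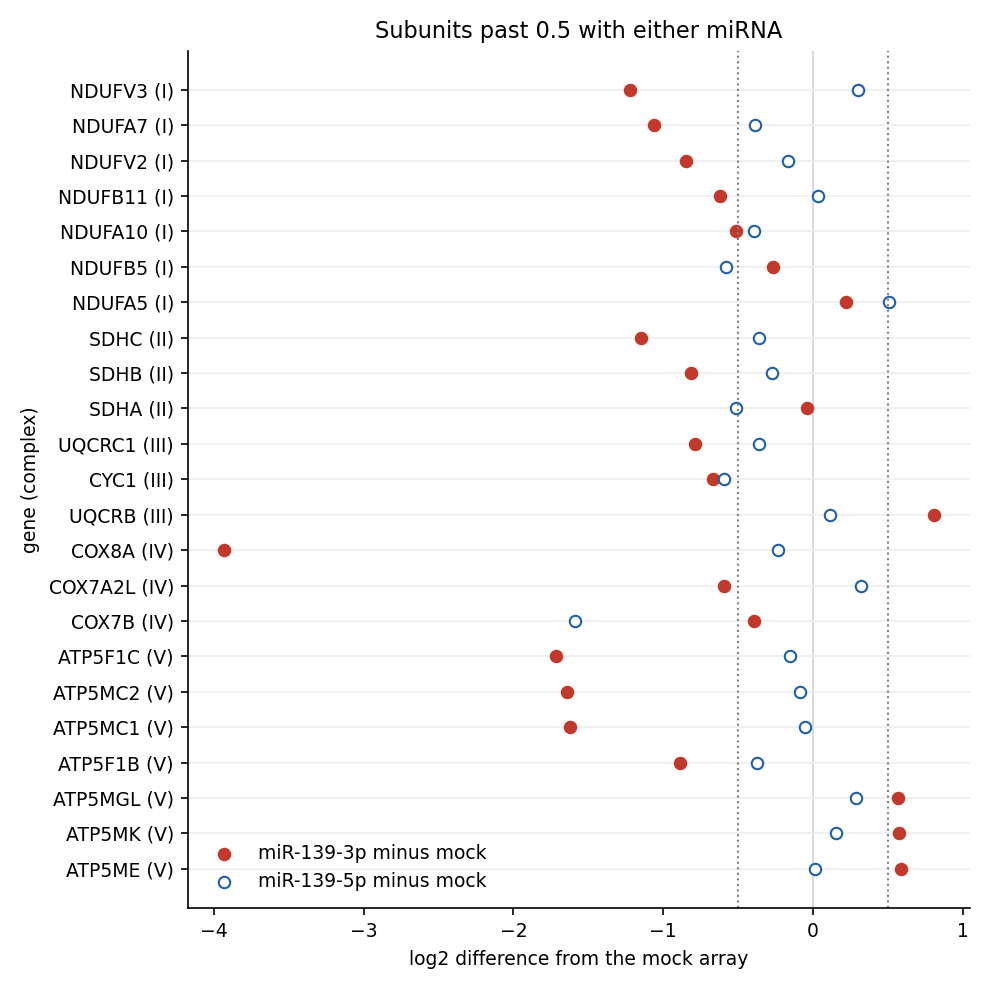
Log2 difference from the mock array (horizontal axis) of 23 members past 0.5 in either comparison and measured on both arrays (vertical axis, complex in brackets), with filled points for *miR-139-3p* and open points for *miR-139-5p*; both share the mock array. Filled points reach from -3.93 for *COX8A* to 0.81 for *UQCRB*, and the one open point past 1 is *COX7B* at -1.59.

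By the distance between their pairs of log2 differences, the members most like *COX8A* among 76 compared were *ATP5F1C* at 2.21, *ATP5MC2* at 2.29, *ATP5MC1* at 2.32, *NDUFV3* at 2.76 and *SDHC* at 2.79. These distances, each over 2 comparisons, all exceed 2 log2 units, so no member was close to *COX8A*. Of the 20 calls with *miR-139-3p*, 11 held in each of 10 processing settings: *COX8A*, *ATP5F1C*, *ATP5MC2*, *ATP5MC1*, *NDUFV3*, *SDHC*, *NDUFA7*, *ATP5F1B*, *NDUFV2*, *SDHB* and *UQCRC1*. None of the members called higher was among them. Of the 7 calls with *miR-139-5p*, 1 held in each setting, *COX7B*, at -1.67 to -1.48.

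**Figure D4:**
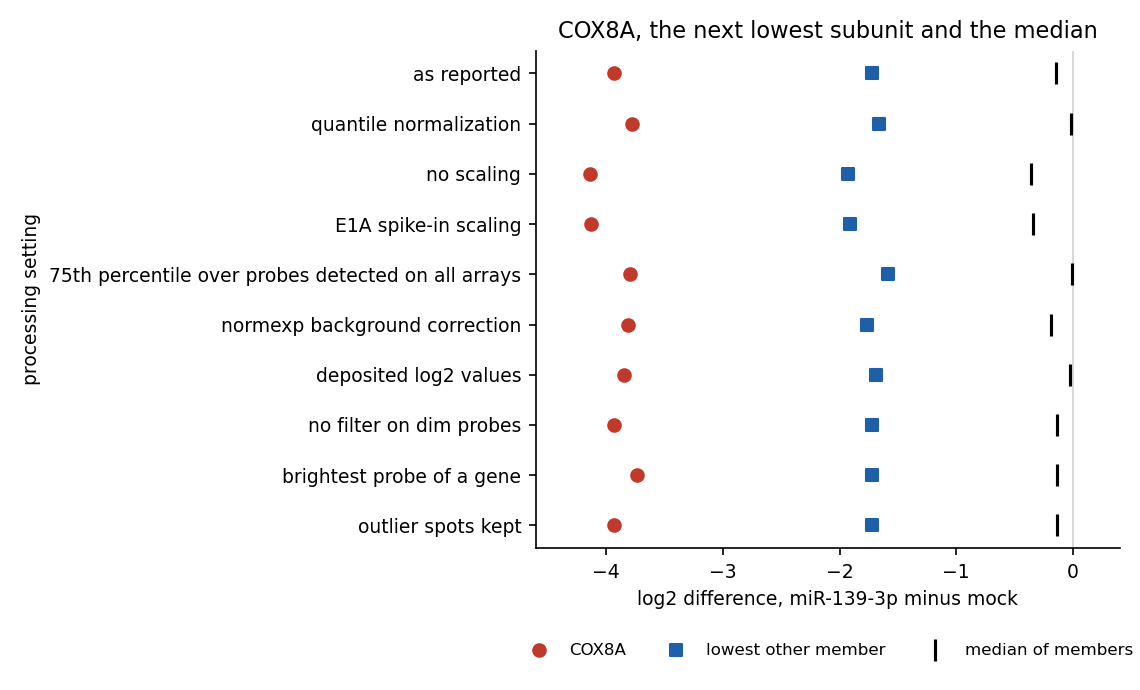
Log2 difference of *miR-139-3p* from mock (horizontal axis) under each of 10 processing settings (vertical axis), for *COX8A* (circles), the lowest other member (squares) and the median of members (vertical ticks). *COX8A* stays between -4.14 and -3.73 and the lowest other member between -1.93 and -1.58.

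Members without a value are accounted for as follows. *COX4I2*, *COX7B2* and *COX8C* were not well above background on any array. *COX4I1*, *UQCRFS1* and *ATP5PO* had outlier spots on the *miR-139-3p* array, and *COX4I1*, *NDUFA1* and *NDUFB7* on the *miR-139-5p* array. With outlier spots kept, these 5 genes lay between -0.05 and 0.07 with *miR-139-3p* and between -0.35 and 0.13 with *miR-139-5p*.

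Promoters are shown for *COX8A* and for the ATP synthase genes near it that have a single start site in the table, because these genes were the lowest with *miR-139-3p*. Each is the 250 bases before the RefSeq start on GRCh38.p14, plus strand, at chr11:63974370-63974619, chr10:7787927-7788176 and chr17:48892537-48892786 in that order. Capitals mark the motifs searched on both strands: NRF1 as CGCATGCG, GABP as CCGGAAG, YY1 as AAGATGG and CRE as TGACGTC, whose reverse complement GACGTCA overlaps it in *ATP5MC1*.
COX8A: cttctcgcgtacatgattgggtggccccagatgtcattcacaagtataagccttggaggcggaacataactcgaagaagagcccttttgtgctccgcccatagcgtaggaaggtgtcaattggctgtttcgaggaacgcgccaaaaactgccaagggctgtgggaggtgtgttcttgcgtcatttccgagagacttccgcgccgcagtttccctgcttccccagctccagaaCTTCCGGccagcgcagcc
ATP5F1C: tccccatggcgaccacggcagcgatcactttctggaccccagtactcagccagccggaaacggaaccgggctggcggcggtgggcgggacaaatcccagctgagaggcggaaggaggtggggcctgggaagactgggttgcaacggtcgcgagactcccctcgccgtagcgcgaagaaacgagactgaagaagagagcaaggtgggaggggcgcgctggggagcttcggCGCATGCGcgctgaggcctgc
ATP5MC1: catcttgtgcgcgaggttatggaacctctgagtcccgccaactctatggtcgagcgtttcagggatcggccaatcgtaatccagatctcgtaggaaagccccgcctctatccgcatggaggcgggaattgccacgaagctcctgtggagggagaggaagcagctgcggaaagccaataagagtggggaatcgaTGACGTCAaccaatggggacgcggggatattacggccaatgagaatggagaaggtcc
The *COX8A* window held the reverse complement of the GABP letters, *ATP5F1C* held the NRF1 letters and *ATP5MC1* the CRE letters, so these 3 windows shared none of the 4 motifs. Of 85 members, 70 had a window, 83 windows in all. The NRF1 letters lay in 12.0% of member windows and 2.18% of 22198 windows of protein-coding genes, the GABP letters in 22.9% and 10.7%. The YY1 letters lay in 7.23% and 3.36%, and the CRE letters in 7.23% and 3.73%. These are matches of letters, not sites.

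Genes that serve the same pathway were listed beside the subunits. Values of these lists are given for the reported processing only, not for the alternatives. With *miR-139-3p*, 20 of 51 assembly factors with a value were lower (39.2%, against 30.5% of protein-coding genes) and 5 higher (9.80%, against 23.0%), at a median of -0.44 beside -0.15 over protein-coding genes. Among them *CMC2*, *COA4* and *TMEM177*, which act in complex IV assembly, were at -1.97, -1.28 and -1.20, while *COX19*, a copper-related factor, was at 1.26 and *SURF1*, which acts on heme insertion, at 0.79. *DMAC2* was at -1.08 and *DMAC1* at 1.77, both named for assembly of the membrane arm of complex I. The 1 probe of *DMAC1* was dim, at 11.9 units in mock cells, 8.47 after *miR-139-5p* and 35.1 after *miR-139-3p*. With *miR-139-5p*, 3 of 52 were lower (5.77%, against 12.2%) and none higher (against 10.6%), at a median of -0.12.

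Of 13 tricarboxylic acid cycle genes, 7 were called lower with *miR-139-3p* (53.8%, against 30.5% of protein-coding genes), at a median of -0.56 beside -0.15. The other 6 lay between -0.48 and -0.14, within the threshold. The 7 included *MDH2*, malate dehydrogenase, at -1.22, *FH*, fumarate hydratase, at -0.95, *CS*, citrate synthase, at -0.87, and *OGDH*, of the oxoglutarate dehydrogenase complex, at -0.71. With *miR-139-5p*, 1 of 13 was lower (7.69%, against 12.2%), *OGDH* at -0.68, and the median was -0.03. *OGDH* was read by 1 dim probe, at 37.4 units in mock cells, 22.2 after *miR-139-5p* and 19.7 after *miR-139-3p*. Of 14 genes of coenzyme Q synthesis and cytochrome c, 6 were lower after *miR-139-3p* (42.9%, against 30.5%) and 1 higher (7.14%, against 23.0%), at a median of -0.48. After *miR-139-5p* 5 of them were lower (35.7%, against 12.2%), at a median of -0.30. *COQ9*, a lipid-binding factor of that synthesis, was at -0.99 and -0.71.

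Of 12 regulators of mitochondrial genes with a value, 3 were lower with *miR-139-3p* (25%, against 30.5% of protein-coding genes): the receptor *ESRRA* at -1.03, the mitochondrial RNA polymerase *POLRMT* at -0.93 and the transcription factor *NRF1* at -0.65. Under *miR-139-5p*, 2 of the 12 were lower and 2 were higher (16.7% each, against 12.2% and 10.6%). *TFB2M*, a mitochondrial transcription factor, was at -0.84 and *NRF1* at -0.51 there, while *GABPB1* and *TFAM* were higher at 0.59 and 0.53. The 1 probe of *NRF1* was dim, at 39.8 units in mock cells, 26.7 after *miR-139-5p* and 22.0 after *miR-139-3p*. The 13 mitochondrially encoded subunits were not analysed here.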

How the data were processed

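RNA of A549 cells was measured on 3 arrays, for mock, *miR-139-5p* and, on a separate slide, *miR-139-3p*. Spot intensities were deposited by the authors as read by Agilent Feature Extraction 12.1.1.1 with background subtracted and no normalization between arrays. The deposited table of log2 values held quantile-normalized log2 signals and served as an alternative. Outlier spots (614, 935 and 1526 in that order) were left out. A probe counted as above background where at least 50% of its spots were. Log2 signals were taken relative to the 75th percentile of spots other than controls, which was 93.6, 88.9 and 81.0 units in the same order. Of 58201 probes, 31100 were named by RefSeq accession through the annotation of GRCh38.p14; gene coordinates are left out because the array design used another build.

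Named were *COX8A*, members past 0.5 on the log2 scale in either comparison, the lowest and highest member of each complex, isoform partners and the 5 members nearest *COX8A* by Euclidean distance. Members, *COX8A* and the lists (compiled from general knowledge) were chosen with earlier results of these data known. The values of 1 member are not reported here. The comparisons were each miRNA against mock and, for *COX8A*, the miRNAs against each other. In all, 10 alternatives changed the scaling, background correction, filter, probe, outliers, threshold or deposited values. The steps were tested on simulated data. Python 3.11.15 (numpy 2.4.6, pandas 2.3.3, matplotlib 3.10.9) and R 4.3.3 with limma 3.58.1 were used.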

Additional observations from a re-analysis of the deposited data

How the results depend on the processing

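Of 184 values of the counts, medians and *COX8A* results under the alternatives, 167 moved by less than the spread between probes, or by less than 1.5 times for counts, and 17 moved. No value of *COX8A* changed sign, but medians near 0 did: 7 medians, all of a size up to 0.14, changed sign in 21 of these values. Among them the complex III median with *miR-139-5p* went from 0.08 to -0.05 and the complex I median with *miR-139-3p* from -0.14 to 0.00 (just above 0), both under quantile normalization. With a threshold of 1 in place of 0.5, 7 members were lower and 1 higher after *miR-139-3p*, beside 12.9% and 10.3% of protein-coding genes, and 1 lower and 0 higher with *miR-139-5p*, beside 2.37% and 1.85%. The 1 higher was the bound of *COX6A2*. Without scaling, 27 were lower and 2 higher after *miR-139-3p*, beside 41.0% and 16.6% of protein-coding genes, and 0 higher with *miR-139-5p*, beside 8.01%. With the scaling to 7 E1A spike-in probes, 26 were lower and 2 higher after *miR-139-3p*, beside 40.2% and 16.9% of protein-coding genes. With *miR-139-5p* 1 was lower there, beside 8.07%. With the 75th percentile over detected probes, 0 were higher with *miR-139-5p*, beside 9.83% of protein-coding genes. With the normexp correction, run on median spot signals because the spot tables hold no mean, 3 were higher after *miR-139-3p* and 0 after *miR-139-5p*, beside 8.83% and 3.56% of protein-coding genes. Quantile normalization and the deposited log2 values each left 1 higher with *miR-139-5p*, beside 10.2% and 10.3% of protein-coding genes. Quantile normalization put the complex IV median with *miR-139-5p* at -0.15. The brightest probe of each gene left 3 lower with *miR-139-5p*, beside 12.0% of protein-coding genes. The cause was not tested, apart from the threshold.

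Of 702 values of single members for *miR-139-3p*, 693 stayed within the spread and 9 moved (1 farther from 0, 7 nearer, 1 across it). For *miR-139-5p*, 686 of 702 stayed and 16 moved (4 farther, 7 nearer, 5 across). The alternative that assigns *NDUFA4* to complex I by its prefix was not run, as the gene is now named *COXFA4* and is no member. No paired analysis was possible because each condition had 1 array. Dim probes limit what can be said of *COX6A2*, whose difference with *miR-139-3p* was 0.49 after the normexp correction.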
